A study of Mus musculus with 24 samples.

Results

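Amino acid carriers of the solute carrier (SLC) families were followed as a set of 39 genes in sensory neurons that had lost Tsc2. The members were taken by gene symbol from families SLC1, SLC3, SLC6, SLC7, SLC15, SLC36, SLC38 and SLC43. They make up 39 of the 47643 gene identifiers in the count tables, and 38 of them had at least 1 read, Slc38a4 being the exception. Not all of them carry amino acids at the cell surface: Slc6a8 carries creatine, Slc43a3 nucleobases, and Slc7a14, Slc15a3, Slc15a4, Slc38a7 and Slc38a9 are placed mainly on lysosomes.

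RNA was measured in GFP-positive cells sorted from the L4 dorsal root ganglia (DRG) of mice aged 8 to 9 weeks on a mixed C57BL/6 and AJ background, from the side opposite a sciatic nerve crush made 3 days earlier. Control mice were Nav1.8-Cre; Tsc2 flox/+; Rosa26-ZsGreen, and Nav-Tsc2 mice carried Nav1.8-Cre and Rosa26-ZsGreen with Tsc2 flox/null, with 2 males (replicates 1 and 2) and 2 females (replicates 3 and 4) of each genotype. Each of the 8 mice gave 3 libraries of about 100 cells, which were summed per mouse. Nav1.8-Cre acts mostly in nociceptors, both genotypes carry it, control neurons keep 1 intact Tsc2 allele after recombination, and the null allele is present in every cell of a Nav-Tsc2 mouse. All 8 mice therefore carried a nerve injury on the other side, and no uninjured mouse was compared.

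Tsc2 encodes tuberin, the brake on the growth kinase complex mTORC1. Amino acids, leucine and arginine above all, switch mTORC1 on at the lysosome, so the carriers that bring them in lie upstream of the kinase. Some carrier genes are also known targets of the stress-induced factor ATF4, whose translation mTORC1 promotes. SLC3 proteins are heavy chains that escort several SLC7 light chains to the membrane, SLC1 and SLC6 carriers depend on sodium, several SLC38 carriers move glutamine and alanine, and SLC15 and many SLC36 carriers run on protons.

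The mice held 47959617 to 61290435 gene counts each, and single libraries 8339220 to 34228180. Tsc2 itself was read at 13.4, 24.7, 21.5 and 24.1 CPM (library-scaled counts, normalized by TMM) in the control mice and at 8.70, 8.51, 7.30 and 11.0 in the Nav-Tsc2 mice, a log2 fold change of -1.24 ± 0.22 (SE; adjusted p = 0.0040). No mouse overlapped with the other genotype. The summed level of 9 neuron markers was 14720 to 17674 CPM in control and 15738 to 17946 CPM in Nav-Tsc2 mice. Single neuron markers differed: Snap25 (mean 4402 against 2051 CPM), Isl1 (385 against 222) and Rbfox3 (98.5 against 55.6) were called lower, and Prph (902 against 1481) higher. These are 33.3% and 11.1% of the 9, where 8.00% of all genes were called lower and 9.12% higher. Markers of other cells were present and differed: 14 glial markers summed to 3006 to 3127 CPM in control and 1984 to 2571 CPM in Nav-Tsc2 mice, but without S100b the ranges were 1894 to 2381 and 1956 to 2384 CPM. The 7 endothelial markers summed to 0.508 to 2.13 against 7.81 to 20.6 CPM, the 4 pericyte markers to 4.34 to 46.6 against 13.8 to 142 CPM, and the 7 macrophage markers to 0.669 to 4.54 against 7.90 to 17.4 CPM. The 6 fibroblast markers overlapped, at 73.1 to 236 against 121 to 196 CPM, and 5 red blood cell markers summed to 2.80 CPM or less in every mouse. Within these lists the endothelial markers Flt1 (mean 0.0338 against 8.56 CPM), Ly6c1 (0.0182 against 2.63) and Kdr (0.358 against 1.76), the pericyte marker Pdgfrb (6.89 against 14.8) and the macrophage marker Cx3cr1 (0.0328 against 5.71) were called higher, and the macrophage marker Csf1r (0.803 against 3.71) was not. Cdh5, Cldn5, Ptprc, Adgre1 and C1qa stayed under 1 CPM in every mouse, and Pecam1 was at 0 to 1.59 CPM in control mice and under 1 CPM in every Nav-Tsc2 mouse. The part of these cells in the results below was not tested. In sorted pools, fewer cells of a type and less RNA per cell cannot be told apart.

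The promoter sequences are shown first for carriers that hold a motif known for the stress factor ATF4 or for the E-box factors of lysosomal genes. Of the 7 carriers with either motif 1 was called, where 17.1% of all genes tested were called in either direction. RefSeq (GRCm38.p6) gave a promoter window of 250 bases before to 50 after a start for 27 of the 39 members. The core of the C/EBP-ATF response element, TGATGNAA on either strand, stood in windows of Slc1a4, Slc7a7 and Slc7a11, none of which was called. It stood in a window of 4.51% of all 27025 genes that had one. None of the 8 carriers called higher that had a window held it there, and the 6 others called higher, Slc7a3, Slc7a5, Slc6a6, Slc6a8, Slc38a1 and Slc15a3, were not searched. Sequence outside the windows was not searched either, so a core elsewhere in these genes would have been missed. The E-box CACGTG, found in a window of 8.09% of all these genes, stood in those of Slc36a1, Slc38a7, Slc43a1 and Slc7a14, of which Slc7a14 was called higher. The antioxidant core TGACNNNGC, in a window of 14.0% of all these genes, was read in 6 members, including Slc7a1 and Slc38a2. TGATGNAA and CACGTG are printed in capitals in the next 4 windows, each written 5′ to 3′ on the gene's strand.
Slc7a11 (chr3:50443564-50443863, minus strand): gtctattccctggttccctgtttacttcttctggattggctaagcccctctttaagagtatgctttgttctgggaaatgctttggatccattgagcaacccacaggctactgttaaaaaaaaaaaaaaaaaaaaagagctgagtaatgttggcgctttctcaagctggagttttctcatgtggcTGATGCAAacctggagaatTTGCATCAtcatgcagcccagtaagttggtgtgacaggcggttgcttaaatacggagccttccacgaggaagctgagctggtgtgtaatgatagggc
Slc1a4 (chr11:20332664-20332963, minus strand): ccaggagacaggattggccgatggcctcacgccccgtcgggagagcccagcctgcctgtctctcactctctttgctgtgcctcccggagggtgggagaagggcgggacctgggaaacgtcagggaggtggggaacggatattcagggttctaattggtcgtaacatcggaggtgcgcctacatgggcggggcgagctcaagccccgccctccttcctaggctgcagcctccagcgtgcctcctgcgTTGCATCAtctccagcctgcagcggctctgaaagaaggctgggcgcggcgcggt
Slc7a14 (chr3:31310270-31310569, minus strand): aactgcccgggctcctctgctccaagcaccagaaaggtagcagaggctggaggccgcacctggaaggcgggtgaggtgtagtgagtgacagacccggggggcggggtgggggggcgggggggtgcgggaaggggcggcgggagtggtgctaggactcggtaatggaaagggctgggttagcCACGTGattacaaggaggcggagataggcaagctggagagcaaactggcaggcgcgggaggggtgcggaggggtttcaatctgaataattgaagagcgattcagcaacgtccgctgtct
Slc36a1 (chr11:55204090-55204389, plus strand): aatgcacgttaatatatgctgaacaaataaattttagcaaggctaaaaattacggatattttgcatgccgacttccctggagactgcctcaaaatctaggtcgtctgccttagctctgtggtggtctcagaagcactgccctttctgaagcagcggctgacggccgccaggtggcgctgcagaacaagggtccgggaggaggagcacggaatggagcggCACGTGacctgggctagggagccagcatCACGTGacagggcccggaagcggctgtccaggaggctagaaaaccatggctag
The Slc7a11 window held 2 cores in opposite orientation, starting 66 and 47 bases before the start site, and Slc1a4 held 1 that spans its start. These matches are letters in a window and say nothing of binding.

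Of the 39 carriers, 35 had enough reads to be tested, 14 were called higher in Nav-Tsc2 neurons and 4 lower. A carrier was called where its adjusted p in edgeR's quasi-likelihood test over all 17178 genes lay under 0.05 and the change exceeded 0.5 on the log2 scale in either direction. The 14 are 40.0% of the carriers tested and 35.9% of all 39, where 9.12% of all genes tested were called higher. The 4 are 11.4% of those tested, where 8.00% of all genes were called lower. In 16 carriers the 4 Nav-Tsc2 mice all lay above the 4 control mice (45.7%, against 14.6% of all genes), and in 4 they all lay below (11.4%, against 12.3%). The median log2 fold change was 0.49 over the 35 carriers and 0.01 over all genes. Of the tested carriers, 5 did not reach the count minimum in all 4 control mice, and Slc6a12 and Slc15a3 reached it in none, so these 2 could enter the test only by being higher in Nav-Tsc2 mice. Among the 30 that reached it in all 4 control mice, 12 were called higher and 4 lower. Summed over the 39 genes, the carriers took 1447 ± 48.9 CPM in control and 2058 ± 109 CPM in Nav-Tsc2 mice (SD, n = 4), a description for which no test was made.

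**Figure D1:**
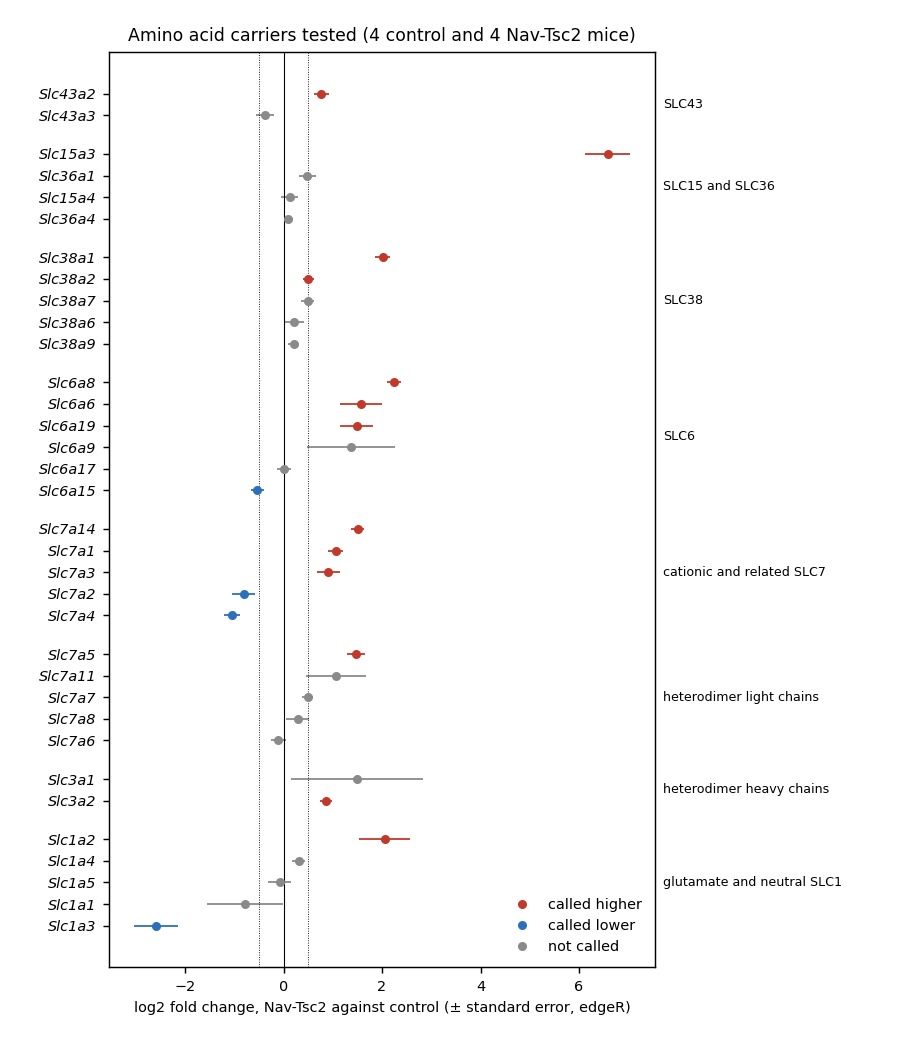
Log2 fold change of 34 of the 35 carriers tested, Nav-Tsc2 against control, with the standard error, grouped by family; Slc6a12 is left out because all its control mice were at 0. Red points were called higher, blue points lower and grey points not called, and dotted lines mark 0.5 and -0.5; Slc15a3 stands farthest to the right and Slc1a3 farthest to the left.

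The heavy chain Slc3a2 and its leucine-carrying partner Slc7a5 rose together. Slc3a2, which encodes CD98hc, was read at 62.5, 65.1, 57.0 and 47.2 CPM in control and at 99.0, 122, 98.7 and 103 CPM in Nav-Tsc2 mice. Every Nav-Tsc2 mouse exceeded every control mouse, by a log2 fold change of 0.87 ± 0.12 (adjusted p = 0.0012). Slc7a5, which encodes the large neutral amino acid exchanger LAT1, was read at 11.0, 12.5, 17.5 and 15.3 CPM in control and at 39.03, 36.2, 32.2 and 47.5 CPM in Nav-Tsc2 mice. The lowest Nav-Tsc2 mouse again lay above the highest control mouse, and the log2 fold change was 1.46 ± 0.18 (adjusted p = 0.00065). In Slc7a5 all 12 Nav-Tsc2 libraries, at 28.5 to 61.2 CPM, stood above all 12 control libraries, at 9.41 to 22.7 CPM.

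None of the other light chains was called. Slc7a7, which encodes y+LAT1, an exchanger of cationic for neutral amino acids, had the highest level per length of all carriers. It was read at 176, 155, 174 and 142 CPM in control and at 261, 236, 210 and 199 CPM in Nav-Tsc2 mice. The mice did not overlap and the adjusted p was 0.013, but the log2 fold change of 0.49 ± 0.11 lay just under the threshold. It passed when 1 of 4 mice was left out (control 1 or 3, Nav-Tsc2 3 or 4), at 0.51 to 0.54. Slc7a6 (y+LAT2; log2 fold change -0.11) and Slc7a8 (LAT2; 0.29) overlapped between genotypes. Slc7a11, the cystine and glutamate exchanger xCT, stayed at 0.153 to 0.817 CPM in all 8 mice, and Slc7a10 had too few reads to test. The heavy chain Slc3a1, at 0 to 0.686 CPM, was not called. It passed when control replicate 3 was left out. In that fit it entered the test through its Nav-Tsc2 mice alone, so its p is no support and is left out.

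Counted per kilobase of exon, the only scale on which levels of different genes are set beside each other here, Slc3a2 went from 16.4 ± 2.24 to 30.0 ± 3.17 CPM per kb and the 6 light chains together from 62.9 ± 4.86 to 89.6 ± 9.16 CPM per kb (SD, n = 4). Slc7a7 made up 77.5% ± 2.75 of the light chain sum in control and 76.2% ± 1.99 in Nav-Tsc2 mice. The share of Slc7a5 was 6.05% ± 1.23 and 11.8% ± 2.55, and the 4 values of each genotype, 4.47 to 7.10% and 10.4 to 15.6%, did not overlap.

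All 5 cationic carriers and their relatives were called, 3 higher and 2 lower. These are 60% and 40% of the 5, where 9.12% of all genes were called higher and 8.00% lower. Slc7a1 (CAT1), a carrier of arginine and lysine, was read at 26.8, 34.8, 46.2 and 42.5 CPM in control and at 71.2, 79.2, 85.3 and 76.3 CPM in Nav-Tsc2 mice. The genotypes did not overlap, at a log2 fold change of 1.05 ± 0.16 (adjusted p = 0.0019). Slc7a3 (CAT3), another arginine carrier, was read at 25.7, 12.8, 19.2 and 16.5 CPM against 35.7, 37.5, 24.2 and 42.3 CPM. Its lowest Nav-Tsc2 mouse fell below its highest control mouse, the log2 fold change was 0.91 ± 0.24 (adjusted p = 0.023), and the call was lost without control replicate 4 or without Nav-Tsc2 replicate 1, 2 or 4 (adjusted p = 0.056 to 0.070). Slc7a2 (CAT2) went the other way, at 11.8, 10.6, 15.6 and 9.48 CPM in control and 7.45, 6.17, 8.62 and 4.84 CPM in Nav-Tsc2 mice. No mouse overlapped, but its call (log2 fold change -0.81 ± 0.24, adjusted p = 0.038) held in 7 of 16 alternative settings, and 6 of the 9 that lost it leave out a mouse, which was control 1, 2 or 3 in some and Nav-Tsc2 1, 2 or 4 in others (adjusted p = 0.054 to 0.099).

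Slc7a14, a lysosomal relative of the cationic carriers, had the largest log2 fold change of these 5. It was read at 67.9, 57.8, 83.2 and 69.1 CPM in control and at 212, 208, 166 and 203 CPM in Nav-Tsc2 mice. The lowest Nav-Tsc2 mouse lay far above the highest control mouse, at a log2 fold change of 1.503 ± 0.13 (adjusted p = 9.36e-05). Slc7a4, whose substrate is not established, fell: 68.4, 77.3, 50.1 and 91.3 CPM in control against 31.2, 35.0, 35.7 and 36.9 CPM in Nav-Tsc2 mice, a log2 fold change of -1.05 ± 0.17 (adjusted p = 0.0024). The order of the pair per length changed places, with Slc7a4 at 17.3 ± 4.16 and Slc7a14 at 7.07 ± 1.06 CPM per kb in control, and 8.36 ± 0.597 and 20.0 ± 2.15 CPM per kb in Nav-Tsc2 mice. Of the Slc7a4 exons, 13.3% of the length also lies in exons of P2rx6 on the other strand, and reads of that stretch could not be assigned by strand.

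In the SLC1 family the glial glutamate carriers moved in opposite directions. Slc1a3, which encodes GLAST and in ganglia marks satellite glia, was read at 4.76, 8.29, 5.92 and 4.46 CPM in control and at 0.699, 0.743, 1.86 and 0.576 CPM in Nav-Tsc2 mice. No mouse overlapped, and the log2 fold change was -2.59 ± 0.45 (adjusted p = 0.0036). Among 14 glial markers only S100b was called, lower, and with S100b set aside the glial sums overlapped between genotypes as given above. Slc1a2, which encodes GLT-1, was read at 0.932, 0.606, 2.10 and 3.37 CPM in control and at 7.47, 6.44, 5.19 and 10.1 CPM in Nav-Tsc2 mice. Each Nav-Tsc2 mouse lay above each control mouse, at a log2 fold change of 2.06 ± 0.52 (adjusted p = 0.021), and the call was lost without Nav-Tsc2 replicate 1 (adjusted p = 0.052) or 4 (adjusted p = 0.057). The neutral amino acid exchanger Slc1a4 (ASCT1), which had the highest level per length of the family, was read at 34.1, 40.3, 32.8 and 42.6 CPM against 55.0, 45.1, 45.1 and 40.3 CPM. These overlap, and neither Slc1a4 (log2 fold change 0.31) nor Slc1a5 (ASCT2; -0.08) nor the neuronal glutamate carrier Slc1a1 (-0.79) was called.

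**Figure D2:**
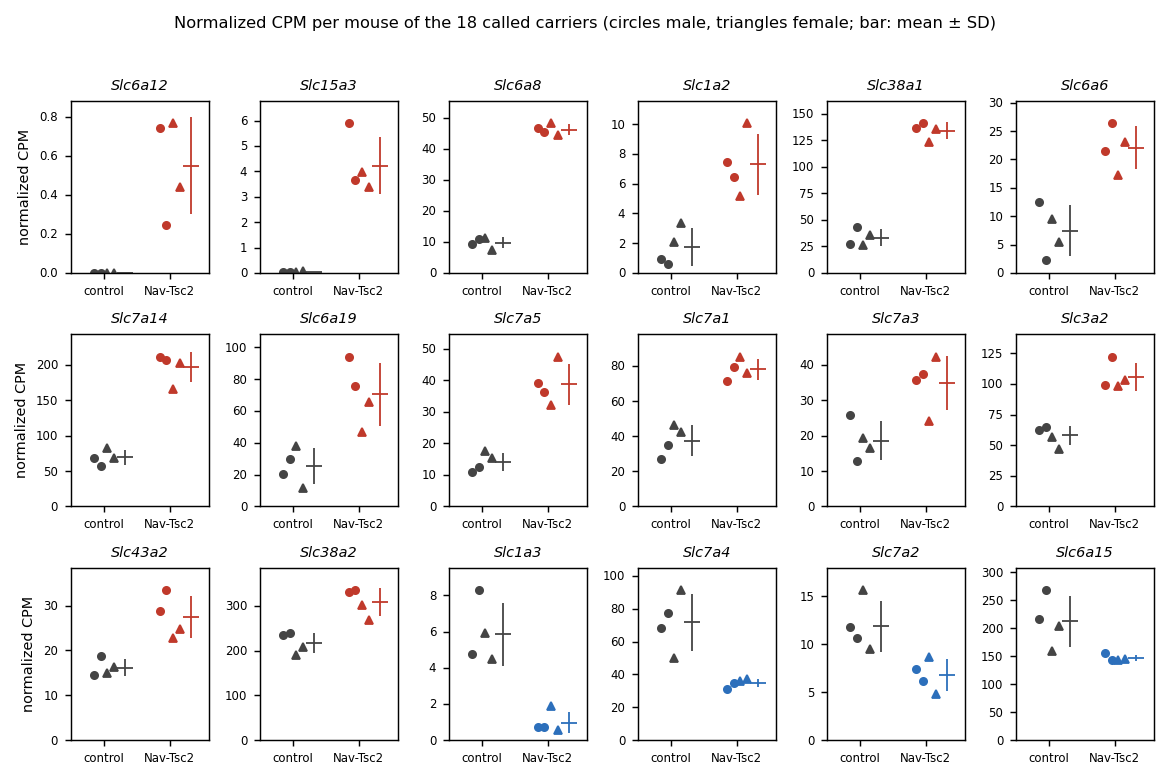
Normalized CPM of the 18 called carriers in each of 4 control (dark) and 4 Nav-Tsc2 mice (red where called higher, blue where lower), circles for males and triangles for females, with the mean ± SD beside them on axes that start at 0. The genotypes overlap in 1 panel, Slc7a3, and in the other 17 every mouse of one genotype lies on one side of every mouse of the other.

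Of the 7 SLC6 carriers, which take up their solute with sodium and in part also chloride, 4 were called higher and 1 lower. These are 57.1% and 14.3% of the 7, where 9.12% of all genes were called higher and 8.00% lower. The 4 include Slc6a12, which entered the test through its Nav-Tsc2 mice alone. Slc6a8, the creatine carrier, was read at 9.44, 11.0, 11.1 and 7.37 CPM in control and at 46.5, 45.4, 48.2 and 44.3 CPM in Nav-Tsc2 mice. The 2 sets of 4 lie far apart with little spread, at a log2 fold change of 2.24 ± 0.15 (adjusted p = 2.76e-05). Slc6a6, the taurine carrier, was read at 12.5, 2.29, 9.50 and 5.44 CPM against 21.6, 26.4, 17.2 and 23.1 CPM. Its control mice were widely spread but stayed below every Nav-Tsc2 mouse. Its log2 fold change was 1.57 ± 0.43 (adjusted p = 0.029), and the call was lost in 5 of 16 alternative settings, 4 of which leave out control replicate 4 or Nav-Tsc2 replicate 1, 2 or 4 (adjusted p = 0.066 to 0.078).

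Slc6a19, which encodes B0AT1, the neutral amino acid carrier known from gut and kidney, was read at 20.7, 30.1, 38.0 and 11.9 CPM in control and at 94.1, 75.4, 46.8 and 65.6 CPM in Nav-Tsc2 mice. The genotypes did not overlap, and the log2 fold change was 1.49 ± 0.34 (adjusted p = 0.013). Slc6a12, the betaine and GABA carrier, had no read in any of the 12 control libraries and 123 reads in Nav-Tsc2 mice, at 0.741, 0.248, 0.768 and 0.440 CPM, in 7 of 12 libraries. Set against a floor of 3 counts over the control group, it was at least 39.4-fold higher, a bound that covers counting error only. Slc6a12 entered the test through its Nav-Tsc2 mice alone, so its p is no support and is left out. Slc6a15, the B0AT2 carrier of branched-chain amino acids and proline, fell. It was read at 217, 268, 159 and 204 CPM in control and at 156, 144, 143 and 144 CPM in Nav-Tsc2 mice. The highest Nav-Tsc2 mouse was just below the lowest control mouse, and the log2 fold change was -0.53 ± 0.14 (adjusted p = 0.025). That call was lost when control replicate 1 or 2 or any single Nav-Tsc2 mouse was left out, with log2 fold changes of -0.40 to -0.56. Slc6a17 (0.01) and the glycine carrier Slc6a9 (1.37, under 0.6 CPM in every mouse) were not called.

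The glutamine carriers Slc38a1 and Slc38a2, next to each other on chromosome 15, both rose, by different amounts. Slc38a1 (SNAT1; chr15:96571418-96642913) was read at 27.4, 43.1, 26.7 and 36.2 CPM in control and at 137, 141, 124 and 136 CPM in Nav-Tsc2 mice. No mouse came near the other genotype, at a log2 fold change of 2.01 ± 0.16 (adjusted p = 6.09e-05). Slc38a2 (SNAT2; chr15:96687392-96699730), the carrier induced by amino acid lack in many cells, was read at 234, 238, 191 and 208 CPM against 331, 335, 301 and 269 CPM. Its mice did not overlap, and with a log2 fold change of 0.50 ± 0.10 (adjusted p = 0.0080) it lay almost on the fold threshold: 9 of 16 alternative settings put it below, at 0.44 to 0.49, with the adjusted p still under 0.05 in all of them. Slc38a4 (chr15:96994820-97055956), the third carrier of this stretch, had no read in any library. The lysosomal glutamine carrier Slc38a7 reached an adjusted p of 0.029 at a log2 fold change of 0.49 and was not called, though 4 of 16 alternative settings called it, and Slc38a9, the lysosomal arginine sensor of mTORC1, was at 59.4 ± 8.29 and 68.4 ± 2.58 CPM (log2 fold change 0.20, adjusted p = 0.24).

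Among the proton-coupled carriers, Slc15a3, a carrier of histidine and small peptides in endolysosomes, stood at 0.0339, 0.0379, 0.0362 and 0.0602 CPM in control and at 5.90, 3.64, 3.97 and 3.40 CPM in Nav-Tsc2 mice. These are 9 reads in all control mice and 937 in all Nav-Tsc2 mice, a ratio of 100.2 with a 95% counting interval of 52.5 to 220 that covers counting error only. Slc15a3, too, entered the test through its Nav-Tsc2 mice alone, and its p is left out. The genotypes were fully apart, and reads were found in 6 of 12 control and 12 of 12 Nav-Tsc2 libraries. Part of its exon length, 28.1%, also lies in another gene, and Slc15a3 is known to be abundant in macrophages. The macrophage marker Cx3cr1 was also higher in every Nav-Tsc2 mouse, at 0.0339, 0.0189, 0.0181 and 0.0602 CPM in control and at 2.82, 6.99, 3.69 and 9.33 CPM in Nav-Tsc2 mice. Among the Nav-Tsc2 mice the order differed: replicate 1 had the highest Slc15a3 and the lowest Cx3cr1, and replicate 4 the lowest Slc15a3 and the highest Cx3cr1. The part of macrophages in the Slc15a3 result was not tested. Slc15a4, a relative of Slc15a3, was at 25.7 ± 5.69 and 27.9 ± 4.16 CPM and was not called.

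Slc36a1 (PAT1), the lysosomal carrier of small neutral amino acids and the second most abundant carrier per length, was read at 106, 149, 212 and 162 CPM in control and at 222, 213, 233 and 209 CPM in Nav-Tsc2 mice. Control replicate 3 lay among the Nav-Tsc2 mice, and the log2 fold change of 0.48 ± 0.18 was not called (adjusted p = 0.081). With sex as a covariate it was (0.51, adjusted p = 0.0498), and without control replicate 3 as well (0.65, adjusted p = 0.010). Slc36a4 was close to equal, at 42.6 ± 3.92 and 45.6 ± 1.29 CPM.

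Of the SLC43 carriers, Slc43a2 (LAT4), which lets large neutral amino acids pass down their gradient, rose. It was read at 14.6, 18.7, 15.0 and 16.4 CPM in control and at 28.9, 33.5, 22.8 and 24.7 CPM in Nav-Tsc2 mice. The genotypes did not overlap, at a log2 fold change of 0.76 ± 0.16 (adjusted p = 0.0079). Its relative Slc43a1 (LAT3) had no read in control mice and 29 in Nav-Tsc2 mice, in 7 of 12 libraries, too few for the main test. Against the floor of 3 counts this is at least 9.30-fold higher, a bound that covers counting error only. Slc43a3 was read at 17.1, 29.0, 25.1 and 17.9 CPM against 15.5, 17.9, 16.8 and 18.4 CPM, which overlap, and was not called (log2 fold change -0.38, adjusted p = 0.19).

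**Figure D3:**
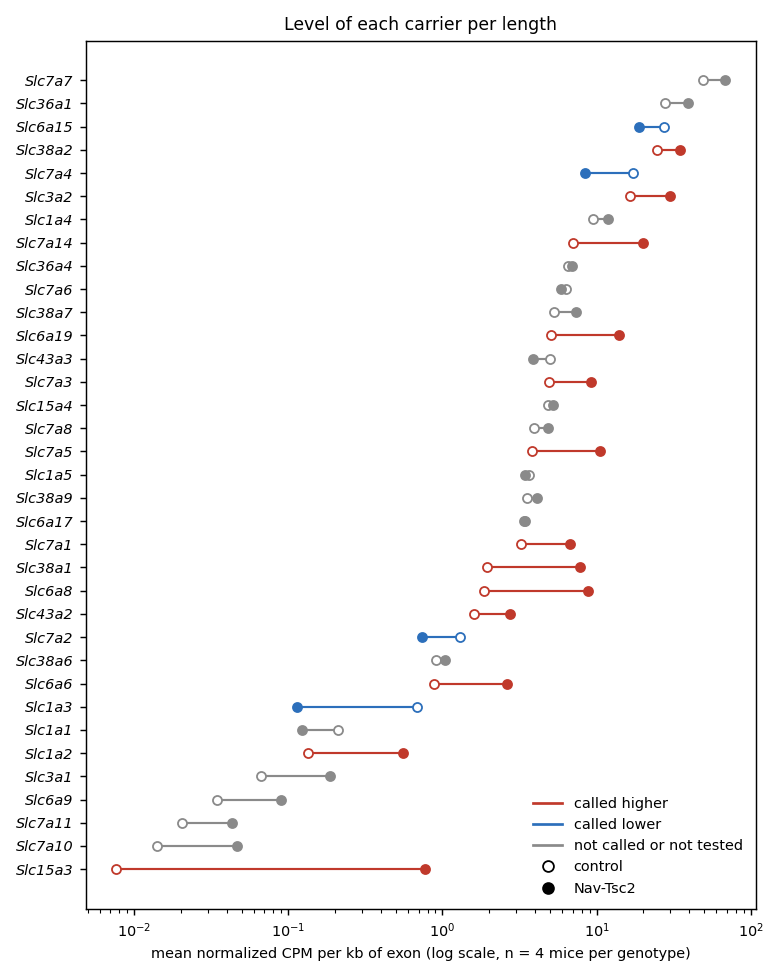
Mean level per length (normalized CPM per kb of exon, log axis; 4 mice per genotype) of the 35 carriers above 0 in both genotypes, open circles for control and filled circles for Nav-Tsc2, coloured by call. Slc7a7 leads in both genotypes, while Slc7a4 and Slc6a15 drop in the order and Slc3a2 and Slc7a14 climb.

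Per length, the carriers of control neurons were led by Slc7a7 at 48.8 ± 4.92 CPM per kb, followed by Slc36a1 at 28.0 ± 7.72, Slc6a15 at 27.4 ± 5.81 and Slc38a2 at 24.6 ± 2.53 CPM per kb. The last 3 lay within their spread of each other. In Nav-Tsc2 neurons the order was Slc7a7 at 68.3 ± 8.27, Slc36a1 at 38.999 ± 1.89, Slc38a2 at 34.9 ± 3.48, Slc3a2 at 30.0 ± 3.17 and Slc7a14 at 20.0 ± 2.15 CPM per kb, and Slc36a1 and Slc38a2, Slc38a2 and Slc3a2, and Slc7a14 and Slc6a15 (18.9 ± 0.761) were neighbours within their spread. Slc7a4 went from the fifth place to the 12th.

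The called carriers moved the same way in both sexes. All 18 called carriers had the same sign in the 2 males and the 2 females of each genotype, and in all 18 neither sex overlapped between genotypes. The same held for 21 of the 35 carriers tested and for 33.0% of all genes. The calls rest on these same mice, and 17 of the 18 showed no overlap between the genotypes at all. That fixes the result within each sex in advance, so it is no separate support. For Slc38a1 the log2 fold change was 1.97 in males and 2.04 in females, for Slc6a8 2.16 and 2.32, and for Slc3a2 0.78 and 0.95. Slc1a2 had the widest gap among the called carriers with reads in both genotypes, 3.16 in males and 1.48 in females. As a term of the model, the difference between the sexes passed for 0 of the 35 carriers in edgeR (0.00582% of all genes), with 4 of 35 at an unadjusted p under 0.05 (9.22% of all genes) and 1, Slc1a1, at an adjusted p under 0.05 in DESeq2 (2.10% of all genes with an adjusted p there). Slc1a1 was also the 1 carrier of 35 that moved in opposite directions in the sexes without overlap in either, a pattern of 3.80% of all genes. Its female change, 0.58 ± 0.63 (SE), was smaller than its standard error. With 2 mice per sex and genotype, this term rests on few mice.

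**Figure D4:**
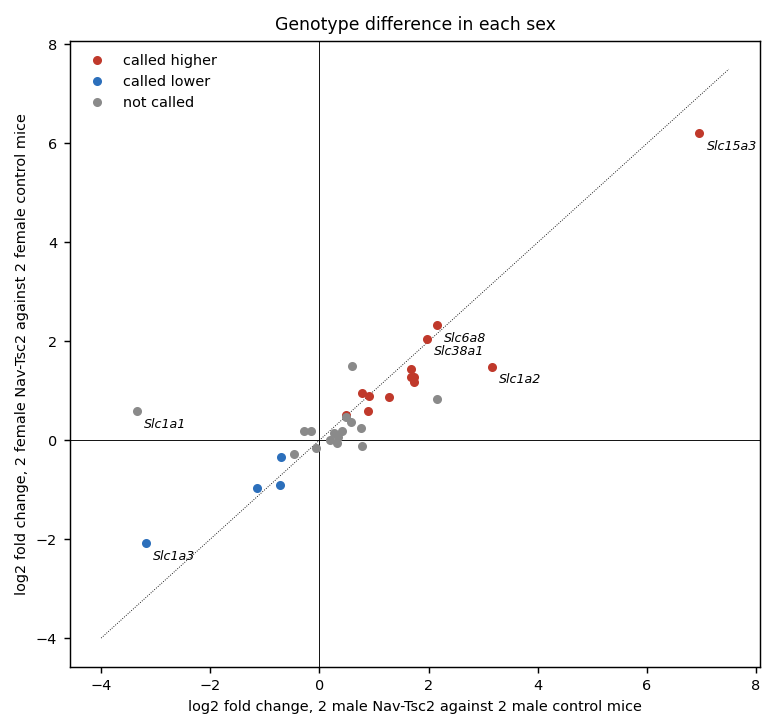
Log2 fold change between genotypes in the 2 males (x axis) and 2 females (y axis) of each genotype, one point per tested carrier with reads to compare in both sexes, coloured by call; the dotted line marks equal change. The called carriers lie where both sexes are above 0 or both below 0, and Slc1a1 lies apart, low in males and not in females.

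Single libraries of about 100 cells show how widely the changes were spread. In 5 carriers, Slc3a2, Slc7a5, Slc7a14, Slc6a8 and Slc38a1, each of the 12 Nav-Tsc2 libraries lay above each of the 12 control libraries, and in Slc15a3 as well, which entered the test only through Nav-Tsc2 mice. The same held for 2.41% of all genes. Slc38a1 ranged from 12.7 to 53.8 CPM over the control and from 106 to 161 CPM over the Nav-Tsc2 libraries. Slc6a8 ranged from 4.10 to 18.1 and from 30.6 to 72.1 CPM. Slc15a3 ranged from 0 to 0.219 and from 0.668 to 9.65 CPM. The single markers Flt1, Ly6c1 and Cx3cr1 of other cells were separated by library in the same way. Flt1 ranged from 0 to 0.149 CPM over the control and from 0.768 to 15.2 CPM over the Nav-Tsc2 libraries, Ly6c1 from 0 to 0.0656 and from 0.423 to 7.79 CPM, and Cx3cr1 from 0 to 0.126 and from 0.143 to 28.2 CPM. The marker lists as sums were not separated. The endothelial sum ranged from 0.0627 to 6.97 CPM over the control and from 3.45 to 29.2 CPM over the Nav-Tsc2 libraries. The macrophage sum ranged from 0 to 14.7 and from 5.42 to 37.5 CPM, and the pericyte sum from 3.07 to 85.9 and from 9.57 to 233 CPM. The part of these cells in the carrier results was not tested.

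**Figure D5:**
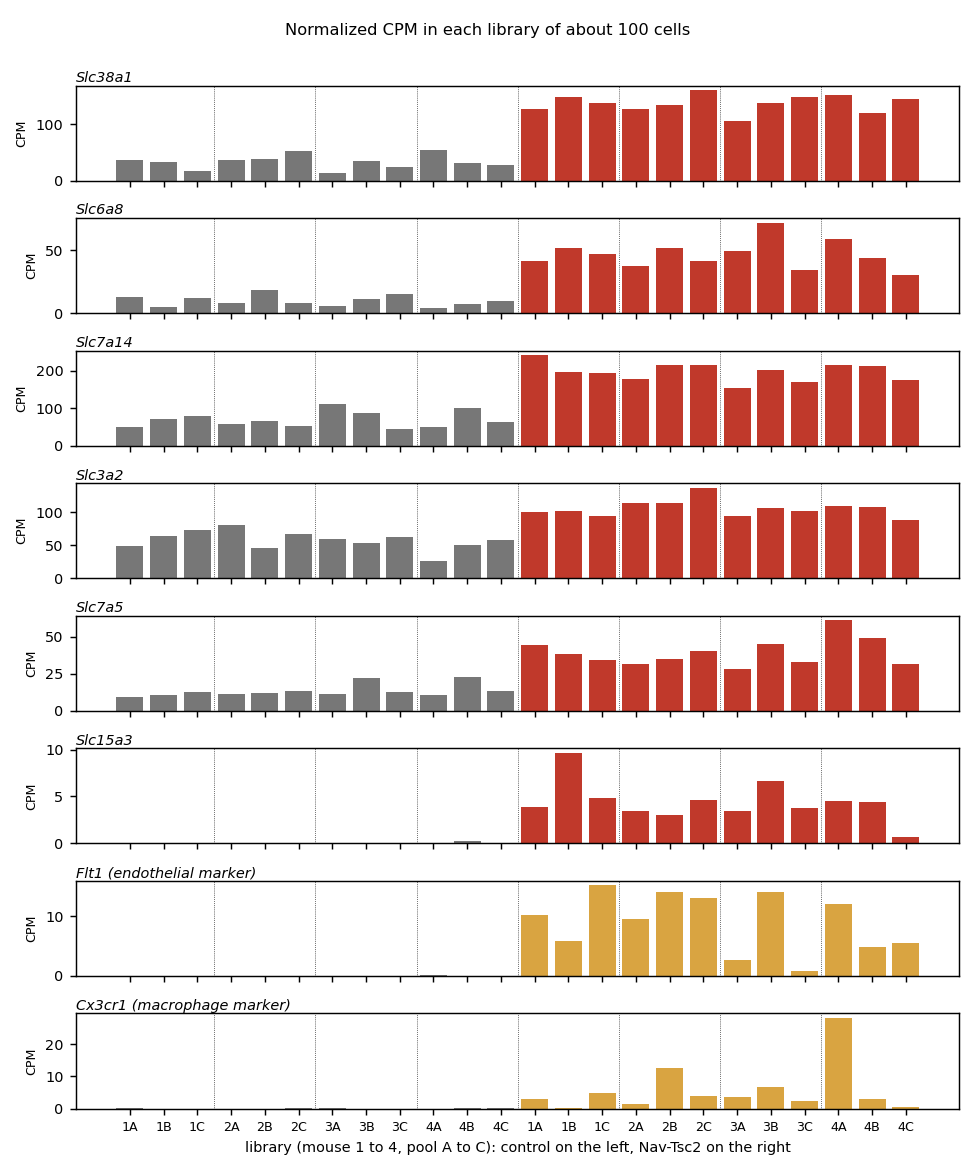
Normalized CPM of 6 carriers in each of the 24 libraries, 3 pools (A to C) from each of 4 control mice (grey) and 4 Nav-Tsc2 mice (red), and below them the endothelial marker Flt1 and the macrophage marker Cx3cr1 (gold in Nav-Tsc2). In all 8 panels every Nav-Tsc2 bar is taller than every control bar.

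Split by regulation, 5 of the 9 carriers known as ATF4 targets were called higher and none lower, with a median log2 fold change of 0.91, where 9.12% of all genes were called higher and 8.00% lower. They were Slc3a2, Slc7a1, Slc7a3, Slc7a5 and Slc38a2, while Slc1a4, Slc1a5, Slc6a9 and Slc7a11 were not called. Of the 26 other carriers tested, 9 were called higher and 4 lower, at a median of 0.39. The 9 include Slc6a12 and Slc15a3, which entered the test through their Nav-Tsc2 mice alone. Among 14 genes of ATF4 and of amino acid synthesis outside the set, 8 were called higher and none lower, read against the same shares. The lists were chosen with earlier results of these data known, so these counts are a description and no independent support. Atf4 itself went from 87.3 ± 11.3 to 199 ± 6.87 CPM (log2 fold change 1.19), and the glutathione-degrading enzyme Chac1 from 5.11 ± 1.65 to 39.9 ± 3.87 CPM (2.96). The serine and one-carbon enzymes Phgdh (1.78), Psat1 (0.90), Shmt2 (1.27) and Mthfd2 (1.23), the proline enzyme Aldh18a1 (1.11) and the stress factor Ddit3 (1.35) made up the rest, and Asns, for asparagine synthesis, was not called (0.23, adjusted p = 0.093).

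Among 33 further amino acid carriers and vesicular relatives that are no members, 18 could be tested and 1 was called in each direction. That is 5.56% of the 18 each way, below the 9.12% of all genes called higher and the 8.00% called lower. Slc7a15, a relative of the light chains, was read at 0.254, 0.663, 0.109 and 0.301 CPM in control and at 2.57, 1.77, 1.05 and 0.762 CPM in Nav-Tsc2 mice (log2 fold change 2.21 ± 0.67, adjusted p = 0.043), a call that held in 7 of 16 alternative settings. The glutamate carrier Slc1a6 (EAAT4) was read at 8.07, 5.55, 4.45 and 8.78 CPM against 2.94, 2.90, 1.32 and 1.96 CPM (log2 fold change -1.56 ± 0.35, adjusted p = 0.013). In both genes the mice did not overlap.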

How the data were processed

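Each of the 24 libraries came with a deposited table of counts per Ensembl gene, which the authors made from single-end reads of amplified, unstranded cDNA (FastQC, STAR to mm10, HTSeq; versions are not given in the sources used here). A table of the authors' own DESeq2 comparison (fold changes, standard errors, p-values and normalized values) was not used. The 3 technical libraries per mouse were added up, and mice were the replicates. Genes were kept with edgeR's filterByExpr (count minimum 10), scaled by TMM and compared with edgeR 4.0.16 (quasi-likelihood F-test, R 4.3.3), with Benjamini-Hochberg adjustment over 17178 genes. Each standard error was derived as the absolute log2 difference over the root of the F statistic. Calls required both an adjusted p below 0.05 and an absolute log2 difference above 0.5. Levels per kb divide normalized CPM by the union of exons (GENCODE on GRCm38), and 47224 of 47643 identifiers matched a symbol. Overlap with other genes is the share of that union that lies in exons of another gene. Alternatives used DESeq2 1.42.0, limma 3.58.1, other scalings, no filter, sex as a covariate, a replicate block and each mouse left out. The fits were tested on simulated data. Values per mouse are given for called carriers, those called with sex or the block in the model, and the highest per length in each family; Slc3a1, Slc38a7, Slc38a9, Slc43a1 and other uncalled members with a value were named after their values were seen. The members and lists were chosen with earlier results of these data known. A planned comparison of protein sequences was not run.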

Additional observations from a re-analysis of the deposited data

Results flagged for a closer look

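In 5 of 73 groups of 4 mice, 1 mouse lay far from the other 3 by Dixon's 95% limit, where chance flags about 1 in 20 groups, or 3.65 of them. They were Slc1a3 in Nav-Tsc2 replicate 3 (1.86 CPM against 0.576 to 0.743), Slc3a1 in control replicate 3 (0.561 CPM against 0 to 0.0402), Slc6a15 in Nav-Tsc2 replicate 1 (156 CPM against 143 to 144), Slc38a3 in control replicate 4 (0.482 CPM against 0 in the other 3) and Slc15a3 in control replicate 4 (0.0602 CPM against 0.0339 to 0.0379). Leaving out the mouse did not turn the direction of the called carriers Slc1a3, Slc6a15 and Slc15a3.

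Slc1a1, the neuronal glutamate and cysteine carrier, had log2 fold changes of opposite sign in the sexes, -3.35 ± 0.76 in males and 0.58 ± 0.63 in females (SE). The female change was thus smaller than its standard error. In female Nav-Tsc2 replicate 4, pools A to C stood at 0.0601, 4.07 and 0.668 CPM. Male mice were at 1.95 and 2.63 CPM in control and at 0.309 and 0.142 CPM in Nav-Tsc2, and female mice at 1.28 and 1.10 CPM in control and at 1.58 and 2.00 CPM in Nav-Tsc2. Genotypes overlapped in neither sex, which together with opposite directions was seen in 3.80% of all genes. The log2 fold change was 3.92 higher in females (unadjusted p = 0.0029, adjusted p = 0.29 in edgeR's quasi-likelihood test; adjusted p = 0.0056 in DESeq2). Of the exon length of Slc1a1, 31.9% also lies in another gene.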

How the results depend on the processing

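Over 16 alternative settings the carriers called higher numbered 11 to 16 and those called lower 2 to 4 (2 to 4 also when a mouse was left out). Calls held in all 16 settings for 9 of the 14 higher and 2 of the 4 lower carriers, and Slc6a12 was called in the 15 that tested it. Slc15a3 is among the 9. Slc15a3 and Slc6a12 entered the main test through their Nav-Tsc2 mice alone, so their calls are no support. Slc1a2, Slc7a2, Slc7a3, Slc6a6, Slc6a15 and Slc38a2 lost theirs in at least 1 setting, in the same direction, and the cause was not tested. Slc7a2 also lost its call without the low-count filter (adjusted p = 0.056), with libraries weighted equally (0.087) and with 24 libraries and the mouse as a random effect in limma-voom (0.42). Of the uncalled carriers, Slc36a1 and Slc38a7 passed in limma-voom (0.52 and 0.53).

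Slc6a17, near 0 throughout, turned sign with DESeq2 (-0.0076), with its size factors (-0.0059), with upper-quartile scaling (-0.022) and when a mouse was left out (-0.095 to 0.11), and Slc1a5 when a mouse was left out (-0.22 to 0.11). The further carriers called higher numbered 3 with DESeq2, 2 in limma-voom, 0 with the replicate block and 0 to 1 without single mice. Those called lower numbered 2 with DESeq2, 0 in limma-voom and 1 to 2 without single mice. Of all called genes 53.3% were higher, and 63.8% in limma-voom.

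With the replicate number as a block, 13 carriers were called higher and 4 lower (1329 and 1116 of all genes, against 1567 and 1374 without it), and Slc6a6 lost its call (adjusted p = 0.055). Deviations of same-numbered mice from their genotype means correlated at -0.04 to 0.06 over 8843 genes and not every mouse correlated best with its own number, so the numbers were not taken as pairs. Slc6a12, Slc7a11, Slc3a1 and Slc6a9, all under 1 CPM, are limited by depth and were not tested in limma-voom.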
